A study of Mus musculus with 20 samples.

Results

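The 753 regions described here are places at the annotated ends of protein-coding genes where Suz12 peaks were called after transcription had been blocked and not before. Suz12 belongs to the core of PRC2, a Polycomb repressive complex, and its binding was measured by chromatin immunoprecipitation and sequencing (ChIP-seq) in the E14 wild-type line of mouse embryonic stem cells. The tested cells had received DRB at 100 µM for 12 h or triptolide at 10 µM for 9 h, and each was set against untreated cells of its own time course at 0 h, with 2 libraries in each of the 4 groups. Cells of all groups were cultured in serum medium with leukaemia inhibitory factor (LIF) on gelatin, and the line is a single one, so every result is about E14 cells. Peaks of the 8 lists were merged into 11943 regions wherever they shared 1 bp. A region was kept for this account when all 4 treated lists held a peak in it, none of the 4 untreated lists did, and the distance of its widest peak to either annotated end of a protein-coding gene was at most 1 kb. Members were thus chosen by the presence or absence of called peaks. Of 1065 regions gained in this way, 753 lay at gene ends and 312 did not. Since the calls of treated and untreated libraries chose the members, the difference between treated and untreated cells is given below as a description, calls included, and none of it counts as a test of the members.

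PRC2 methylates lysine 27 of histone H3, a mark of silent developmental genes, and in embryonic stem cells it is found mainly at promoters rich in CpG dinucleotides, the Hox clusters among them. CpG-rich promoters of active genes normally carry RNA polymerase II and little PRC2. DRB inhibits the CDK9 kinase that releases paused polymerase into elongation, and triptolide acts on the XPB subunit of TFIIH, which opens DNA at initiation, so both stop transcription at different steps.

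The 250 bases before the RefSeq start of the 4 most heavily bound gained sites with a listed promoter are shown first, since CpG content is a feature that the choice of members did not use. They are written 5′ to 3′ on the strand of the gene, from RefSeq on GRCm38.p6, with every CpG in capitals.
Isyna1: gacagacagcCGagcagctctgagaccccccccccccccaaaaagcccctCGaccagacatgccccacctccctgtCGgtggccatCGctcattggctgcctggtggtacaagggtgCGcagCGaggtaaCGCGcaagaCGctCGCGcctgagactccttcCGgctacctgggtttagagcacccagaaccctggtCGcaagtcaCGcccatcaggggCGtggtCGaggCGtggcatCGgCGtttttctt
Irf2bpl: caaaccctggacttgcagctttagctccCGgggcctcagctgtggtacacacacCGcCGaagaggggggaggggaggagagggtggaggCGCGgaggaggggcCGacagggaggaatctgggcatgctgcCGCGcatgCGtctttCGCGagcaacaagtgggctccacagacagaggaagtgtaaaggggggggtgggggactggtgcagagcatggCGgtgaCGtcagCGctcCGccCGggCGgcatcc
Sall1: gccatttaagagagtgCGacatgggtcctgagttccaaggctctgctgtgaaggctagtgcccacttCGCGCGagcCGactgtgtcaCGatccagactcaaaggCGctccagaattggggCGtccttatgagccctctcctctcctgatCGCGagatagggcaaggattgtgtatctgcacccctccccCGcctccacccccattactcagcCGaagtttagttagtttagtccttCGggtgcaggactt
Klf4: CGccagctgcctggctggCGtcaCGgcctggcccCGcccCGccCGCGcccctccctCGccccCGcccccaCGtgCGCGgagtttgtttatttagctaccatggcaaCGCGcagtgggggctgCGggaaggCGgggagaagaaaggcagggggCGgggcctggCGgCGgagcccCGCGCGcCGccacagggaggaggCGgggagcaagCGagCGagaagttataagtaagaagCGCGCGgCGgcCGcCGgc
The Isyna1 sequence lies at chr8:70594231-70594480 on the plus strand and holds 19 CpGs, and that of Irf2bpl lies at chr12:86884815-86885064 on the minus strand with 17. The Sall1 sequence, chr8:89044163-89044412 on the minus strand, holds 13 CpGs, and the Klf4 sequence, chr4:55532476-55532725 on the minus strand, holds 32. The widest gained peak covered the whole of the Isyna1, Sall1 and Klf4 sequences and reached into that of Irf2bpl. For contrast, the promoter of Hoxa10, a gene with a Suz12 peak in all 8 lists, and that of Olfr1, an olfactory receptor gene with no peak in any list, are given in the same way.
Hoxa10: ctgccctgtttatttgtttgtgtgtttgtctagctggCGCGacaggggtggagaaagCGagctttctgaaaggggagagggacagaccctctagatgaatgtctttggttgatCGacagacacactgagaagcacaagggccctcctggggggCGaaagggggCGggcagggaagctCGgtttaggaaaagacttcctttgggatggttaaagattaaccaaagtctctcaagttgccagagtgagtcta
Olfr1: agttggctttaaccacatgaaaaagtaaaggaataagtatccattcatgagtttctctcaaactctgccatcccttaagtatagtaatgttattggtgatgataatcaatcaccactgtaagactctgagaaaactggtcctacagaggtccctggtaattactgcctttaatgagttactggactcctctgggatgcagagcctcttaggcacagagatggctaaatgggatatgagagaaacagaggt
Hoxa10 (chr6:52240855-52241104, minus strand) had 7 CpGs in this window, and Olfr1 (chr11:73399496-73399745, minus strand) had 0.

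The libraries held 2416530 and 7340023 reads counted over the regions at DRB 12 h and 4334366 and 4441617 at triptolide 9 h, against 1323926 and 4396744 at DRB 0 h and 3699979 and 3070233 at triptolide 0 h. The shallower library of each DRB pair carried the index ATCACG and is given first wherever both are listed, while triptolide libraries are in the order of their replicate numbers. By the column names, no sequencing lane held both treated and untreated libraries, so lane and treatment cannot be told apart. Of 8 embryonic stem cell marker genes fixed for a check of the cell type, Pou5f1, Nanog, Esrrb, Zfp42, Tdgf1 and Dppa5a had no Suz12 peak in any list, and Sox2 and Klf4 were among the gained genes. Of the trophectoderm genes, Cdx2, Eomes, Krt8 and Krt18 had a peak in all 8 lists and Elf5 in none, and of the primitive endoderm genes, Gata6, Sox17 and Foxa2 had one in all 8 lists and Gata4 in none. Among fibroblast feeder genes, Thy1 and Twist2 had a peak in all 8 lists, Vim in some, and Col1a1 and Col1a2 in none. No RNA was measured in the libraries used, so this check concerns Suz12 alone.

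Gained sites together took 4.08% and 4.07% of the counted Suz12 reads at DRB 12 h and 4.17% and 4.01% at triptolide 9 h, against 1.71% and 1.84% at DRB 0 h and 1.77% and 1.64% at triptolide 0 h. Libraries of a group lay close together, and the treated and untreated groups did not overlap. The median level of a member was 42.0 and 41.6 CPM at DRB 12 h and 43.2 and 42.3 CPM at triptolide 9 h, against 23 and 23.8 CPM at DRB 0 h and 23.2 and 22.7 CPM at triptolide 0 h. CPM stands here for counts per 1e6 reads counted over all regions, after scaling of the libraries by the TMM method. Reads were thus present at these sites before treatment, although no peak had been called there. Regions at gene ends with a peak in all 8 lists took 60.9% and 58.8% of the reads at DRB 12 h and 58.8% and 59.4% at triptolide 9 h, against 66.3% and 64.5% at DRB 0 h and 64.4% and 66.2% at triptolide 0 h. As the libraries hold no outside standard, all of these are shares of 1 total, and more cells with Suz12 at a site cannot be told apart from more Suz12 at that site in each cell.

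**Figure D1:**
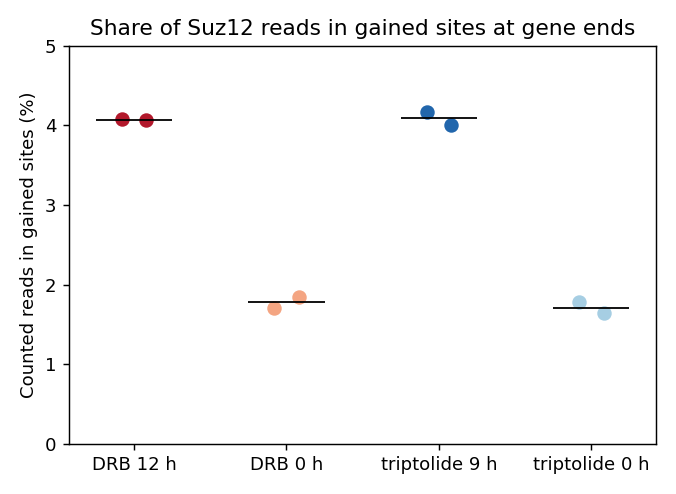
The percentage of counted Suz12 reads that fell in the 753 gained sites is plotted for each library (points) with the mean of its group (lines). The 4 treated libraries lie between 4.01% and 4.17% and the 4 untreated ones between 1.64% and 1.84%.

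Per kb of peak, the median member had 29.0 CPM in treated libraries and 15.7 CPM in untreated ones, while the 3041 regions of all 8 lists at gene ends had 52.3 CPM in treated and 61.5 CPM in untreated libraries. The median density of gained sites thus stayed below that of the regions of all 8 lists after treatment. Gained peaks were also narrower, with a median of 1451 bp for the widest peak (quartiles 1204 and 1831 bp), against 2386 bp at those 3041 regions. The widest peak was taken over 8 lists at those regions and over 4 at members. Such a width was not particular to members. The median was 1429 bp for all regions at gene ends and 1451.5 bp for gained regions away from gene ends. The median log2 difference of a member was 0.91 for the mean of both drugs, 0.89 for DRB 12 h minus 0 h and 0.93 for triptolide 9 h minus 0 h, beside 0.05 for the mean of both drugs over all 11943 regions. Over both drugs, 645 members differed by more than 0.5, 314 by more than 1 and 84 by more than 1.5, and 4 were below 0.

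As a description of the same contrast, edgeR's quasi-likelihood test with Benjamini-Hochberg adjustment over all regions called 681 of the 753 members higher for the mean of both drugs at an adjusted p under 0.05, where 28% of all regions were called higher. For DRB alone it called 567 members higher (18.1% of all regions) and for triptolide alone 613 (19.3% of all regions), and in none of the 3 contrasts was a member called lower, where 28.9% of all regions were called lower over both drugs, 19.2% for DRB and 21.9% for triptolide. In 533 members both drugs gave a call of their own, and 70 members were called in no contrast. Every treated library exceeded every untreated one at 644 members, or 85.5%, where 24.4% of all regions did. Nothing is read from these counts about the members, since a peak in treated libraries alone was the condition for being one. The count for DRB was 352 without the DRB 0 h library of index TGACCA.

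The 15 members with the most reads in treated cells included several transcription regulators. Sall1, a zinc finger repressor of the spalt family (chr8:89040769-89046800), had 277 and 285 CPM at DRB 12 h and 311 and 243 CPM at triptolide 9 h, against 48.5 and 44.0 CPM at DRB 0 h and 46.4 and 52.0 CPM at triptolide 0 h. Its log2 difference over both drugs, 2.56 log2 units (SE 0.11), was the largest of all members, and its lowest treated library lay far above its highest untreated one. Irf2bpl, a co-regulator that binds interferon regulatory factor 2 (chr12:86881550-86884995), had 330.5 and 254 CPM at DRB 12 h and 287 and 292 CPM at triptolide 9 h, against 45.2 and 56.0 CPM at DRB 0 h and 54.8 and 55.9 CPM at triptolide 0 h. Its difference was 2.43 log2 units (SE 0.12), and its relative Irf2bp1 (chr7:19003833-19006279) followed with 2.23 log2 units (SE 0.15). Together they made up the 3 gained genes of a list of 7 in the Sall and Irf2bp families, which was drawn up with these results known. The other gene lists below were also chosen with earlier results of these data known.

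Isyna1, which makes inositol phosphate from glucose 6-phosphate, shared 1 region with Ssbp4 (chr8:70594139-70599368), and this was the member with the most reads. It had 352 and 291 CPM at DRB 12 h and 279 and 255 CPM at triptolide 9 h, against 103 and 92 CPM at DRB 0 h and 116 and 101 CPM at triptolide 0 h. Its untreated level was above the median treated level of the members in CPM, but its widest peak spanned 5230 bp. Per kb it had 19.7 CPM in untreated libraries, below the treated median of 29.0 CPM per kb for the members. The difference at Isyna1/Ssbp4, 1.52 log2 units (SE 0.10), was smaller than that of Sall1. Gas2l1, a linker of actin and microtubules, and Rasl10a shared another wide region (chr11:5060484-5065624), with 248 to 328 CPM in the 4 treated libraries, against 87.9 to 104 CPM in the 4 untreated ones. Slc38a1, a glutamine transporter (chr15:96640545-96643427), had 155 and 179 CPM at DRB 12 h and 196 and 175 CPM at triptolide 9 h, against 28.8 and 37.9 CPM at DRB 0 h and 33.8 and 35.0 CPM at triptolide 0 h, a difference of 2.35 log2 units (SE 0.12) in which treated and untreated libraries were well apart. Nfib, a transcription factor of the nuclear factor I family, had 151 to 191 CPM in the 4 treated libraries, against 32.4 to 55.9 CPM in the 4 untreated ones. The m6A writer component Rbm15b had 152 to 200.1 CPM in the 4 treated libraries, against 36.8 to 46.0 CPM in the 4 untreated ones, and the glycosyltransferase gene B4galnt4 had 131 to 185 CPM in the 4 treated libraries, against 34.5 to 41.9 CPM in the 4 untreated ones. Treated and untreated libraries did not overlap at any of the 15. Every treated library exceeded every untreated one at 85.5% of all members and at 24.4% of all regions. As peaks in treated lists alone made a region a member, this separation is only a description.

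**Figure D2:**
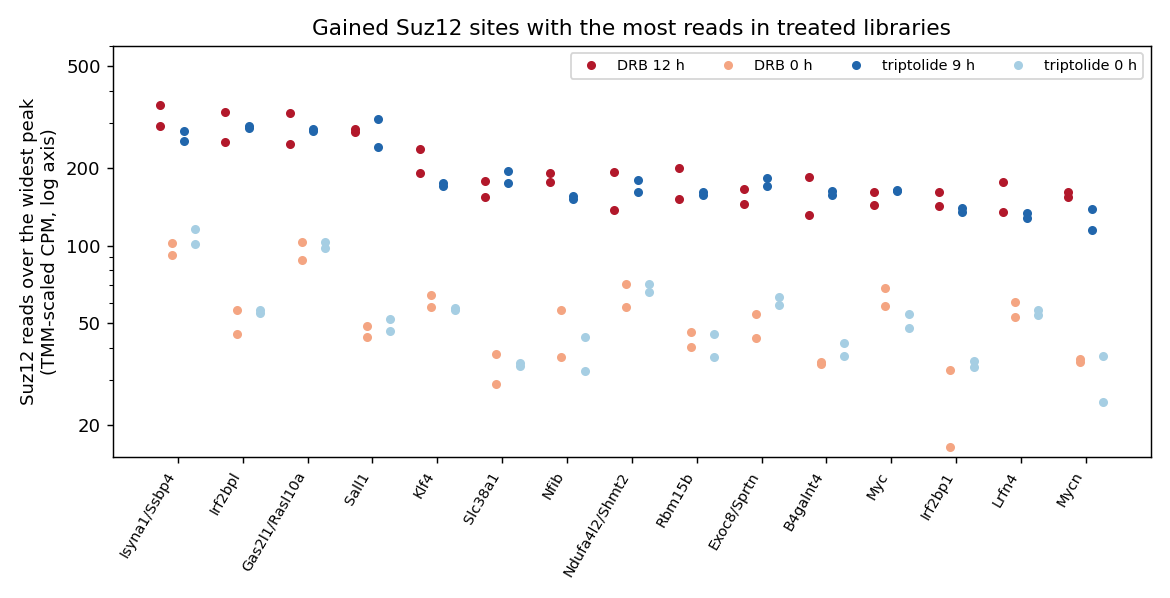
Suz12 reads over the widest peak (TMM-scaled CPM, log axis) are plotted for the 15 gained sites with the highest mean in treated libraries, each point being 1 library. All were chosen by peaks in treated lists alone. At every one of these sites the DRB 12 h and triptolide 9 h libraries lie above the untreated libraries of both time courses, from Isyna1/Ssbp4 with 255 to 352 CPM in the 4 treated libraries, against 92 to 116 CPM in the 4 untreated ones to Mycn with 115 to 162 CPM in the 4 treated libraries, against 24.5 to 37.3 CPM in the 4 untreated ones.

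Of 32 listed genes of the pluripotency network 8 (25%) had a gained site at an end, where 4.26% of all 21631 protein-coding genes did. They were Fgf4, Klf2, Klf4, Lefty1, Myc, Mycn, Sox2 and Utf1. Their median log2 difference over both drugs was 1.65, beside 0.91 for all members. Klf2 and Klf4 encode Krüppel-like factors of the naive state. Klf4 (chr4:55529920-55533285) had 238 and 193 CPM at DRB 12 h and 175 and 171 CPM at triptolide 9 h, against 64.1 and 57.6 CPM at DRB 0 h and 55.9 and 57.4 CPM at triptolide 0 h. Klf2 (chr8:72318700-72321209) had 130.4 and 132 CPM at DRB 12 h and 116 and 107 CPM at triptolide 9 h, against 21.4 and 24.9 CPM at DRB 0 h and 23.2 and 25.3 CPM at triptolide 0 h. At neither gene did treated and untreated libraries overlap, and the differences over both were 1.72 log2 units (SE 0.11) for Klf4 and 2.34 log2 units (SE 0.12) for Klf2.

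Fgf4, the autocrine ligand that drives ERK signalling in these cells (chr7:144860861-144863109), had 102 and 92.8 CPM at DRB 12 h and 109.6 and 101 CPM at triptolide 9 h, against 20.5 and 25.4 CPM at DRB 0 h and 23.2 and 27.1 CPM at triptolide 0 h, with a difference of 2.05 log2 units (SE 0.13). Myc and Mycn, proto-oncogenes that both encode E-box binding factors, were gained too. Myc (chr15:61984763-61988423) had 144 to 165 CPM in the 4 treated libraries, against 47.6 to 68.2 CPM in the 4 untreated ones, a difference of 1.49 log2 units (SE 0.11), and Mycn differed by 2.08 log2 units (SE 0.14). Sox2, which was named here after its value was seen, was a weaker site with 24.8 to 30.9 CPM in the 4 treated libraries, against 10.7 to 13.4 CPM in the 4 untreated ones and a difference of 1.16 log2 units (SE 0.17). Lefty1, an inhibitor of Nodal, had 40.4 and 76.6 CPM at DRB 12 h and 83.3 and 89.1 CPM at triptolide 9 h, against 23.8 and 62.6 CPM at DRB 0 h and 57.3 and 44.8 CPM at triptolide 0 h. The DRB libraries of Lefty1 overlapped between 12 h and 0 h, and its difference was 0.55 log2 units (SE 0.23). Of the whole list, 14 had no Suz12 peak at an end in any list and 3 had one in all 8 lists.

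Of 19 genes of LIF, STAT3 and cytokine signalling, 4 were gained (21.1%): the feedback inhibitors Socs2 and Socs3 and the kinases Pim1 and Pim3. Their median log2 difference was 1.39. Pim1 (chr17:29490420-29492315) had 88.4 and 90.8 CPM at DRB 12 h and 71.1 and 69.1 CPM at triptolide 9 h, against 17.3 and 34.4 CPM at DRB 0 h and 26.4 and 26.0 CPM at triptolide 0 h, and its difference was 1.54 log2 units (SE 0.16). Socs2 held 1 of the 5 widest gained peaks (chr10:95414017-95417712), and its difference was 1.13 log2 units (SE 0.12). Of 28 genes of the FGF and ERK pathway, 4 were gained (14.3%), Dusp6, Fgf4 and Spry4 among them. Dusp6, the phosphatase that switches ERK off, had 49.2 and 66.8 CPM at DRB 12 h and 53.9 and 54.9 CPM at triptolide 9 h, against 13.1 and 19.3 CPM at DRB 0 h and 23.8 and 16.2 CPM at triptolide 0 h. Treated and untreated libraries of Dusp6 did not overlap, and the difference was 1.60 log2 units (SE 0.17). Spry4, an ERK pathway inhibitor, shared its region with Arhgap26 and differed by 1.31 log2 units (SE 0.13).

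Immediate early genes contributed 7 of 33 (21.2%), which were Ccn2, Dusp1, Dusp6, Fosl1, Ier3, Myc and Zfp36, with a median log2 difference of 1.08. A further 15 of the 33 (45.5%) had a peak in all 8 lists, where 14.3% of all genes did. Dusp1, a phosphatase of MAP kinases, differed by 0.76 log2 units (SE 0.16) and Fosl1, an AP-1 subunit, by 0.73 log2 units (SE 0.16). Of 30 Wnt pathway genes 4 were gained (13.3%) and 14 had a peak in all 8 lists. The gained ones were Dvl1, a transducer of the signal, Fzd5, a receptor, Tcf7l1, a repressor of Wnt targets, and Znrf3, a ligase that removes receptors from the membrane. Their log2 differences ran between 0.98 for Dvl1 and 1.39 for Fzd5. Of 36 genes of the Nodal, BMP and TGF-beta pathway 2 were gained (5.56%), Lefty1 and the receptor gene Acvr2a, and Acvr2a differed by 0.76 log2 units (SE 0.14).

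Families of zinc finger factors were represented as well. Of 26 Klf and Sp genes 6 were gained (23.1%), which were Klf1, Klf2, Klf3, Klf4, Klf9 and Klf11. Klf1 was a lower site with 29.9 to 34.0 CPM in the 4 treated libraries, against 12.3 to 22.4 CPM in the 4 untreated ones, and Klf11 had 17.6 to 30.6 CPM in the 4 treated libraries, against 13.0 to 17.2 CPM in the 4 untreated ones. Of 39 Zbtb genes, which encode BTB-domain zinc fingers, 9 were gained (23.1%) in 8 regions, as Zbtb1 and Zbtb25 shared 1. Zbtb12 (chr17:34894502-34896823) had 121 and 111 CPM at DRB 12 h and 117 and 121 CPM at triptolide 9 h, against 29.6 and 30.6 CPM at DRB 0 h and 38.1 and 34.3 CPM at triptolide 0 h. Its difference was 1.82 log2 units (SE 0.11). The lowest of the 8 belonged to Zbtb7b, named after its value was seen, with 42.0 and 30.4 CPM at DRB 12 h and 40.2 and 35.2 CPM at triptolide 9 h, against 41.9 and 22.4 CPM at DRB 0 h and 28.4 and 24.2 CPM at triptolide 0 h, where treated and untreated libraries overlapped. These shares are set beside the share of all genes as a description, without a test of enrichment.

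A few genes of the Polycomb machinery itself were among the members. Of 34 PRC2 and PRC1 genes, 3 were gained (8.82%), where 4.26% of all genes were. Nothing is read from so small a count, which was not tested. The 3 were the PRC2 accessory subunits Aebp2 and Epop and the PRC1 ligase Ring1. Epop (chr11:97627563-97630241), which links PRC2 to Elongin BC, had 163 and 84.0 CPM at DRB 12 h and 106 and 104 CPM at triptolide 9 h, against 26.3 and 30.1 CPM at DRB 0 h and 26.1 and 27.1 CPM at triptolide 0 h. The DRB 12 h libraries of Epop stood apart from each other, yet both lay above every untreated library, and the difference was 2.03 log2 units (SE 0.19). Aebp2 differed by 0.81 log2 units (SE 0.17), and the region shared by Ring1 and H2-Ke6 by 1.21 log2 units (SE 0.20). Of 41 genes of trithorax and other histone lysine methylation enzymes, 2 were gained (4.88%), a share near that of all genes. They were Ehmt2, a methyltransferase for lysine 9 of histone H3, with 1.15 log2 units (SE 0.16), and Kdm6b, a demethylase that removes the PRC2 mark, with 0.68 log2 units (SE 0.12). Kdm6b lay close to the limit of the rule, its widest peak ending 984 bp from the annotated end.

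Of 51 amino acid transporter genes 10 were gained (19.6%), the median log2 difference being 1.31. Slc38a2, a glutamine transporter whose gene neighbours Slc38a1, had 39.2 and 40.5 CPM at DRB 12 h and 45.3 and 37.3 CPM at triptolide 9 h, against 14 and 14.6 CPM at DRB 0 h and 11.5 and 9.02 CPM at triptolide 0 h. Its difference was 1.73 log2 units (SE 0.16), and those of Slc1a4 and Slc1a5, carriers of neutral amino acids, were 1.19 log2 units (SE 0.15) and 1.42 log2 units (SE 0.20). The glycine transporter Slc6a9, the system L subunit Slc7a5 and Slc38a4, Slc43a2, Slc6a7 and Slc6a15 made up the list, and the lowest of the 10 log2 differences was 0.39. Over all 344 solute carrier genes, which include these, 34 were gained (9.88%). Slc6a8, the creatine transporter on chromosome X (chrX:73672912-73674394), had 47.2 and 34.8 CPM at DRB 12 h and 36.2 and 43.3 CPM at triptolide 9 h, against 4.93 and 8.94 CPM at DRB 0 h and 8.03 and 12.3 CPM at triptolide 0 h. Its untreated levels lay below the untreated medians of the members, 22.7 to 23.8 CPM. Its difference, 2.18 log2 units (SE 0.21), was 1 of the 10 largest. In the DRB 0 h library of index ATCACG the site held 6 reads.

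Sterol synthesis gave 3 of 28 genes (10.7%), the same share as had a peak in all 8 lists. Sqle, the squalene epoxidase, differed by 1.28 log2 units (SE 0.18), and Mvd, in a region shared with Cyba, by 0.50 log2 units (SE 0.12). Of 24 glycolysis genes 1 was gained (4.17%), Pkm, in a region shared with Gramd2 with a difference of 0.75 log2 units (SE 0.14).

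None of 48 proteasome genes, 59 genes of translation initiation and elongation factors and 44 genes of replication licensing and fork proteins was gained. The share of all genes was 4.26%. With a window of 2.5 kb, 2 proteasome genes (4.17%), 1 translation factor gene (1.69%) and 0 replication genes were gained, beside 5.00% of all genes. Nothing is read from such small counts, which were not tested. Of 81 cytosolic ribosomal protein genes 1 was gained (1.23%), Rpl19, in a region that it shared with Cacnb1, and 72 had no peak in any list. Among 58 heat shock and chaperone genes 1 was gained (1.72%), Hsph1, with 1.34 log2 units (SE 0.18). Mitochondrial ribosomal protein genes gave 6 of 78 (7.69%), and each of the 4 named by the rule shared its region with another gene, such as Mrpl2 with Cul7. Splicing factors gave 3 of 67 (4.48%), Hnrnpll, Sf3b2 and Srsf9. Mediator, RNA polymerase II and general factor genes gave 5 of 83 (6.02%), among them Polr2b, which encodes the second largest polymerase subunit, with 0.84 log2 units (SE 0.12) in a region shared with Noa1. Aminoacyl-tRNA synthetase genes gave 3 of 34 (8.82%), Hars, Kars and Mars2.

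Cyclins, CDKs and their inhibitors gave 2 of 35 (5.71%), Ccne2 with 1.01 log2 units (SE 0.13) and the inhibitor gene Cdkn1b with 1.43 log2 units (SE 0.16). Genes of the p53 and stress response gave 2 of 26 (7.69%), Chac1 and the kinase Plk3. Of 38 kinesin genes 1 was gained (2.63%), Kif22, in a region shared with Maz. None of 39 Hox genes was gained, as all 39 had a peak in all 8 lists, and none of 1109 olfactory receptor genes was gained, 1106 having no peak in any list. On chromosomes, 71 members (9.43%) lay on chromosome 11, which holds 7.44% of the genes, and 11 (1.46%) on chromosome X, which holds 4.47%. Like gaps were seen elsewhere, with 5.71% beside 3.59% on chromosome 15 and 6.24% beside 9.38% on chromosome 7. Nothing is read from these shares, which were not tested.

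Not every member differed between treated and untreated cells in its counts. The 5 smallest differences belonged to Adcy4 and Ripk3, which share a region, Bdkrb2, Osm, Rgs16 and Gmpr. Bdkrb2, a bradykinin receptor gene (chr12:105562738-105564407), had 25.6 and 43.8 CPM at DRB 12 h and 43.8 and 45.0 CPM at triptolide 9 h, against 41.9 and 41.6 CPM at DRB 0 h and 52.8 and 42.2 CPM at triptolide 0 h, and Osm, a cytokine of the LIF family, had 20.4 and 32.2 CPM at DRB 12 h and 35.8 and 22.1 CPM at triptolide 9 h, against 28.8 and 29.2 CPM at DRB 0 h and 31.8 and 26.7 CPM at triptolide 0 h. Treated and untreated libraries overlapped at both. The difference was -0.16 log2 units (SE 0.15) at Adcy4/Ripk3 and 0.03 log2 units (SE 0.16) at Gmpr. With libraries scaled to the sum of their counts or to the regions of all 8 lists, no member was below 0, and the median of all 11943 regions moved to 0.25 and 0.39.

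The limits of the rule cut through a continuous range. Just inside 1 kb of a gene end lay Slc4a2 at 995 bp, Kdm6b at 984 bp, Mrto4 at 960 bp and Zbed3 at 928 bp, with log2 differences of 0.83, 0.68, 0.94 and 1.08. Just outside lay regions nearest to Pcgf2 at 1015 bp, Ckm at 1021 bp, Septin11 at 1048 bp, Inppl1 at 1051 bp and Cxxc1 at 1079 bp, with log2 differences of 1.58, -0.09, 0.80, 0.91 and 1.13. A peak in a single untreated list left out regions as strong as the members, such as Tsc22d1 with a mean of 201 CPM in treated and 56.9 CPM in untreated libraries and Bmp4 with 149 CPM in treated and 53.2 CPM in untreated libraries. There were 211 regions at gene ends with a peak in all treated lists and 1 untreated list, with a median log2 difference of 0.65. A further 803 had a peak in 3 treated and no untreated lists, with a median of 0.57. The 5 widest members were Ndufa4l2/Shmt2 at 6462 bp, Sall1, Isyna1/Ssbp4, Gas2l1/Rasl10a and Socs2, and the narrowest was Klhl17/Noc2l at 657 bp. Across members, width and difference over both drugs had a Spearman rho of 0.40 (n = 753), given as a description since reads were counted over that widest peak.

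No member passed the test for a difference between the drugs. The rule asked for peaks under both drugs, so sites called under 1 drug alone were left out and the members were drawn towards like effects, which limits what this test can show. Of the 753 members, 0 had a difference between the DRB effect (12 h minus 0 h) and the triptolide effect (9 h minus 0 h) at an adjusted p under 0.05 in edgeR's quasi-likelihood test, where 0.0167% of all regions (2 of 11943) were called. At an unadjusted p under 0.05 there were 15 members (1.99%), beside 1.62% of all regions, and DESeq2 also called 0. Replicates are called biological in the series design, without mention of separate cultures, and p-values therefore reflect only the spread between these libraries. The median difference between the effects was -0.03 log2 units, and 693 members lay within 0.5 of 0 on the log2 scale. An interval of 1.96 SE either side lay within 1 on the log2 scale at 592 members. The median of its reach to either side was 0.60 log2 units. That multiple belongs to a normal distribution, and with so few libraries a full 95% interval would be wider. The 592 is therefore an upper count. A missed threshold does not show that the drugs act alike at a site. The times differ between the drugs, so the comparison is between 12 h of one and 9 h of the other. DRB and triptolide effects had a Pearson r of 0.80 over the members and 0.88 over all regions, a description over regions that share libraries and scaling.

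**Figure D3:**
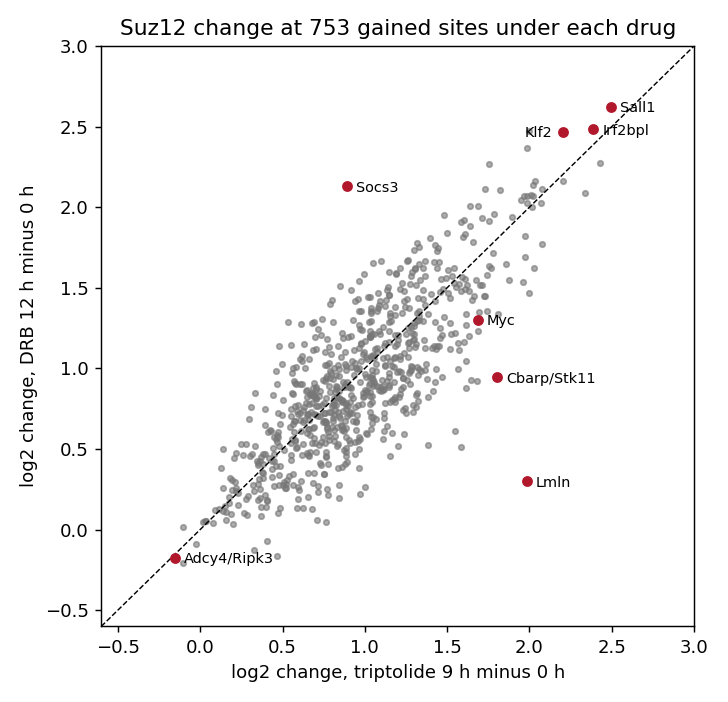
Each point is 1 of the 753 gained sites, with its log2 change at DRB 12 h minus 0 h on the vertical axis and at triptolide 9 h minus 0 h on the horizontal axis, and the broken line marks equal change. Sall1, Irf2bpl and Klf2 lie at the upper end near that line, Socs3 lies above it at 2.13 and 0.89, and Lmln lies below it at 0.30 and 1.98.

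Treated groups set directly against each other, again among sites with peaks in both, differed at 3 members, the sites of Socs3, of Lmln and of Cbarp with Stk11, where 0.126% of all regions (15 of 11943) were called. Socs3, the feedback inhibitor of LIF signalling (chr11:117967162-117969760), had 162 and 131 CPM at DRB 12 h and 64.3 and 66.8 CPM at triptolide 9 h, against 24.7 and 38.1 CPM at DRB 0 h and 35.0 and 35.7 CPM at triptolide 0 h. At DRB 12 h it was higher than at triptolide 9 h by 1.15 log2 units (SE 0.18, adjusted p = 0.0295, edgeR), with both DRB libraries above both triptolide ones. Lmln, which encodes a metallopeptidase (chr16:33061950-33063320), had 26.8 and 30.3 CPM at DRB 12 h and 61.3 and 63.1 CPM at triptolide 9 h, against 19.7 and 25.4 CPM at DRB 0 h and 14.6 and 17 CPM at triptolide 0 h, a difference of -1.11 log2 units (SE 0.18, adjusted p = 0.0425, edgeR). The region of Cbarp and Stk11, Stk11 encoding the kinase LKB1 (chr10:80130514-80132872), lay at a 3′ end and had 57.6 and 70.0 CPM at DRB 12 h and 134 and 142 CPM at triptolide 9 h, against 32.0 and 34.4 CPM at DRB 0 h and 39.9 and 39.0 CPM at triptolide 0 h, a difference of -1.10 log2 units (SE 0.15, adjusted p = 0.0141, edgeR). Corrected for the untreated libraries, the drug effects differed by 1.24 at Socs3 (adjusted p = 0.959), by -1.68 at Lmln (adjusted p = 0.261) and by -0.86 at Cbarp/Stk11 (adjusted p = 0.999), all in edgeR and none past the threshold. The 3 calls were lost without either triptolide 9 h library, when 0 members were called, and 38 members were called without the DRB 12 h library of index TGACCA. Those of Socs3 and Lmln were also lost without either triptolide 0 h library and with libraries scaled to the sum of counts or to the regions of all 8 lists, and that of Lmln without either DRB 0 h library. Both untreated sets, triptolide 0 h against DRB 0 h, differed at 0 members by edgeR and by DESeq2 (0% of all regions), and 19 had an unadjusted p under 0.05 in edgeR, or 2.52% beside 2.39% of all regions. Members had to lack a peak in both sets, which drew them towards like untreated levels and limits what this comparison can show.

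Sites chosen by the peak calls of one drug were also read in the counts of the other. Regions were merged over all 8 lists and reads counted over the widest peak of any list, so the lists of the other drug had a part in the window that was counted. DRB lists alone gave 2020 sites at gene ends with a peak in both lists at 12 h and in neither at 0 h. In triptolide libraries 1024 of these were higher at 9 h than at 0 h and 3 were lower by edgeR at an adjusted p under 0.05, with a median log2 difference of 0.65. The corresponding share of all regions called higher was 19.3%. Among the 1269 of these sites outside the 753 members, 413 were higher and 3 lower, with a median of 0.49. The reverse choice, from triptolide lists alone, gave 890 sites, of which 622 were higher and 0 lower at DRB 12 h than at 0 h, with a median of 0.83, where 18.1% of all regions were called higher. The 142 of them outside the members included 59 higher and 0 lower, with a median of 0.52. The count of 1024 was 619 without triptolide 9 h replicate 2, 628 without triptolide 0 h replicate 1 and 648 without triptolide 9 h replicate 1, and the count of 622 was 378 without the DRB 0 h library of index TGACCA. These directions were already known from an earlier analysis of these data and are no independent evidence.

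A member was placed at a 5′ end when any gene with a listed strand had its 5′ end there, as for 574 members. It was placed at a 3′ end alone, as for 35, only when every gene there had a listed strand. The other 144 had a gene without a listed strand and no listed 5′ end. Of the 609 placed members 94.3% lay at a 5′ end. The share was 92.8% for the regions of all 8 lists at gene ends and 93.7% for all regions at gene ends. This way of placing leans towards 5′ ends in every set. Of 563 members with a RefSeq start within 1 kb, 515 (91.5%) had a widest peak that covered the start, against 97.6% of 2001 regions of all 8 lists. Peaks lay mostly downstream: the median centre was 297 bp into the gene (quartiles 118 and 516 bp), and 483 of the 563 centres were downstream. The median peak reached 376 bp upstream and 1027 bp downstream, against 799 bp and 1516 bp at the regions of all 8 lists, whose median centre was 320.5 bp downstream. Of all members, 576 lay at 1 gene, 166 at 2 genes and 11 at 3 genes, as with Asphd1, Kctd13 and Sez6l2, and reads of a shared region cannot be assigned to 1 of its genes. The 753 regions served 922 genes, 64 of which also had another region with an untreated peak at an end. The median distance to the nearest region of all 8 lists was 131 kb, and 63 (8.37%) lay within 10 kb of one.

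**Figure D4:**
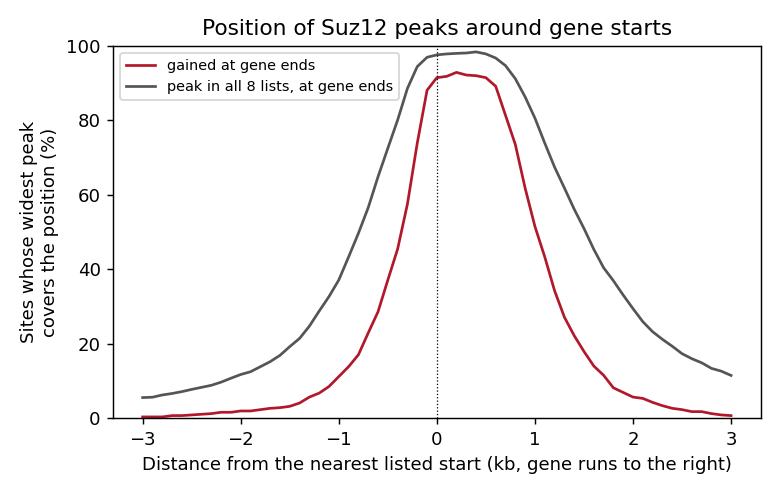
For each distance from the nearest listed start (kb, gene running to the right), the share of sites whose widest peak covers that position is drawn for 563 gained sites and for 2001 regions of all 8 lists. At the start 91.5% of gained sites and 97.6% of regions of all 8 lists are covered, at 1 kb downstream 51.5% and 80.6%, and at 1 kb upstream 11.2% and 37.1%.

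The promoters of gained genes were rich in CpG. RefSeq on GRCm38.p6 listed a promoter, taken as 250 bases before to 50 after the start, for 744 of the 922 genes. Their median CpG count in the 300 bases was 24, against 21 for 2285 genes with a peak in all 8 lists, 7 for 11092 genes with no peak in any list and 14 for all 17274 listed genes. The ratio of observed to expected CpG was 0.79 in the median, against 0.72 for genes of all 8 lists, 0.36 for genes with no peak and 0.58 for all genes. A ratio above 0.6 was found in 77.0% of gained promoters, in 65.8% of those of all 8 lists and in 36.1% of those with no peak. Other genes with a peak in some lists only were not set apart, so CpG richness is not shown to be particular to gained genes. Klf4 had 40 CpGs in its 300 bases and Lmln had 44, whereas Mycn had 14.

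**Figure D5:**
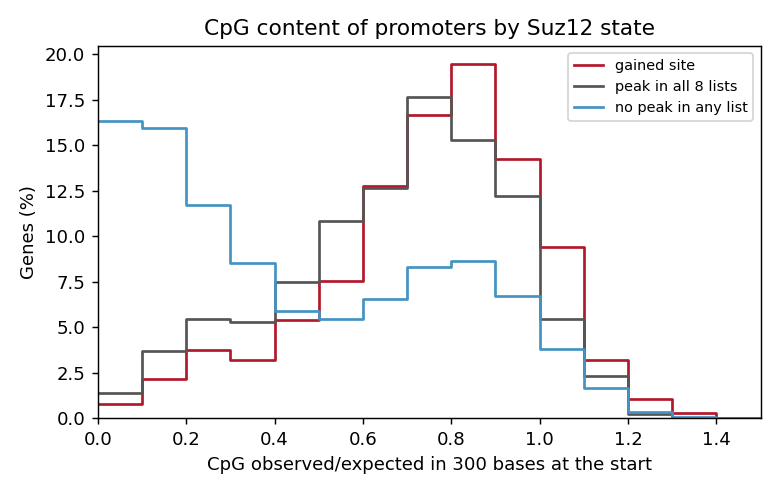
The ratio of observed to expected CpG in 300 bases at the start is drawn as the percentage of genes in each step of 0.1, for 744 genes with a gained site, 2285 with a peak in all 8 lists and 11092 with no peak in any list. Gained genes have their median at 0.79, genes of all 8 lists at 0.72 and genes with no peak at 0.36, with a large group of the last near 0.

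Short motifs were searched on both strands of the same windows, as letters and not as sites of any factor. GGGCGG, the GC box, was present in 72.6% of gained promoters, against 66.6% in genes of all 8 lists, 34.2% in genes with no peak and 46.9% of all promoters. TATAAA was present in 5.11% of gained promoters, against 7.92% in genes of all 8 lists, 17.4% in genes with no peak and 13.4% of all. CACGTG, the E-box, was found in 13.8% of gained promoters, against 8.40% in genes of all 8 lists, 6.77% in genes with no peak and 7.99% of all. CCGGAAG, an ETS-type motif, was found in 13.3% of gained promoters and in 4.81% of those of all 8 lists, with 12.7% in genes with no peak and 12.0% of all. None of these shares was tested. Other genes with a peak in some lists only were not set apart here either, so no motif share is shown to be particular to gained genes. CCAAT was found in 38.4% of gained promoters beside 39.4% of all, TGACG in 26.9% beside 24.1%, and GCGC in 84.5% beside 58.0%. Within the members, the number of CpGs said little about the counts: over 535 members with a listed promoter under the widest peak, its Spearman rho was 0.19 with the difference over both drugs, 0.12 with treated CPM per kb and -0.14 with untreated CPM per kb, given as descriptions.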

How the data were processed

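Suz12 was immunoprecipitated from E14 cells and sequenced. The authors used Bowtie for alignment and MACS for peaks, both on mm10 (GRCm38), per the submitters' processing notes, which give no versions. The 8 deposited lists hold unscored peaks, those of a single library in each, with 13 columns of raw read counts per the file headers. Deposited counts were whole and not normalized. Column names placed 8 columns in the 4 groups, by index and not by replicate for DRB, and 5 were not used. The other 12 of the 20 samples were not analysed here.

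Peaks that overlapped by 1 bp were merged, and a region took the counts of its widest peak. Genes were 21631 RefSeq protein-coding genes (GRCm38.p6, autosomes and X). This annotation gives no strand, which came from the RefSeq promoter table where it lists a gene. All 11943 regions were fitted in edgeR 4.0.16 (R 4.3.3) by quasi-likelihood as 4 groups, TMM-scaled and unfiltered, at an adjusted p under 0.05, and DESeq2 1.42.0 was an alternative. Other alternatives were other scalings, filterByExpr, counts over the narrowest peak, other windows and list rules, a replicate block and leaving out each library. Depth ranged between 1323926 and 7340023 counted reads, and the median member had between 28 and 331 reads in a library. The code was tested on simulated data.

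The members, the 29 gene lists and the alternatives were chosen with earlier results of these data known. Named were the 15 members with the most reads in treated libraries, the 10 largest and 5 smallest differences, any member with a called drug difference, the 5 widest and 5 narrowest, those nearest the limits of the rule, those at the most genes and up to 4 members of each gene list by symbol. The 3 members that differed between the treated groups and a few others were named after their values were seen. A few genes that this rule would name are not reported.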

Additional observations from a re-analysis of the deposited data

How the results depend on the processing

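The number of gained sites at gene ends was 414 with wider peaks alone, 391 with lists of equal length and 1556 when 3 of 4 treated lists sufficed. Leaving out 1 list gave 753 to 1516, the highest without triptolide 9 h replicate 1. The median log2 difference over both drugs was 1.11 with libraries scaled to the sum of counts and 1.25 with scaling to the regions of all 8 lists, and 0.90 to 0.97 without 1 library. Members called higher without 1 library numbered 636 to 693 over both drugs, 352 to 558 for DRB and 444 to 661 for triptolide. A drug difference was called at 0 to 1 members without 1 library, the 1 without the DRB 12 h library of index TGACCA. DRB 12 h against triptolide 9 h gave 1 call with either other scaling and 0 to 38 without 1 library, and both untreated sets gave 0 to 0. Sites from DRB lists that were higher in triptolide libraries numbered 1568 with scaling to the regions of all 8 lists and 619 to 1207 without 1 library, and sites from triptolide lists that were higher in DRB libraries numbered 378 to 617. Of the sites from DRB lists, 1 was lower with the sum of counts, 0 with scaling to the regions of all 8 lists, 0 to 6 without 1 library and 7 with triptolide libraries fitted alone, an alternative chosen after seeing the data. With the replicate block in the triptolide libraries alone, 16 were lower and 1459 higher, and 712 members were called higher with a median of 0.96, against 673 and 0.96 without the block. Same-numbered triptolide libraries deviated together (correlation 0.39 over regions), but 2 pairs leave only a shared number, and for DRB no paired analysis was possible because its columns carry no replicate number. A CpG ratio above 0.6 was found in 81.5% of gained promoters under a gained peak. Slc11a2 was reversed at -0.17 with counts over the narrowest peak. Of 1414 other values for 101 named regions, 1248 moved by less than the spread between libraries, and of 58 values for gene lists under other windows 50 stayed within 1.5 times. The cause of these shifts was not tested. Depth limits the shallowest library, DRB 0 h of index ATCACG, with a median of 28 reads in a member. The intermediate times were not run.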
